A study of Mus musculus with 12 samples.

Results

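The genes described here are 9 genes that mark the identity of Sertoli cells, the supporting cells that enclose the germ cells in the cords of the fetal testis: Sox9, Sox8, Sox10, Dmrt1, Amh, Ptgds, Cst9, Aard and Mro. They were taken by symbol from the 24470 genes of a bulk RNA-seq count table, and all 9 passed the filter on low counts that left 15572 genes for testing. The study deleted Nr2f2, which encodes a nuclear receptor of the testicular interstitium, the tissue between the cords, and measured mRNA of whole mouse testes at E14.5. Each library came from a pool of 3 testes, with 6 pools per genotype.

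Control testes carried the floxed alleles alone (Nr2f2 f/f). Nr2f2 cKO testes carried the same floxed alleles together with Wt1 CreER, a Cre recombinase fused to the estrogen receptor. To activate it, the study gave tamoxifen at E11.5 and E12.5 to pregnant females that carried embryos of both genotypes. Several features of this model bear on Sertoli genes. Wt1, the locus that drives the Cre, is itself expressed in Sertoli cells and their precursors, so the driver is not restricted to the interstitium. The CreER allele is a knock-in at Wt1 and the controls are labelled without it, so effects of the Cre, of one altered Wt1 allele and of the loss of Nr2f2 cannot be told apart. Deletion was partial, as the study found by staining for NR2F2 and for the LacZ reporter of the deleted allele. Nr2f2 mRNA was at 163 to 186 CPM (counts relative to the library size, scaled by the TMM method of edgeR) in control pools and at 50.2 to 119 CPM in cKO pools. This bulk level also depends on the share of interstitial cells, so it does not measure deletion alone.

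In the XY gonad, SRY and its cofactors switch on Sox9 in the supporting cells, and SOX9 then maintains its own transcription and that of the Sertoli program. SOX8 and SOX10 belong to the same SoxE family of transcription factors and can act on the same target sites. AMH and prostaglandin D2 are secreted products of that program, the former removing the Müllerian ducts and the latter able to promote Sox9 activity in neighbouring cells.

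Library totals ran from 7044531 to 59404778 counts, and the lowest count of any of the 9 genes in any library was 50, for Sox10 in cKO 5. Nothing in the labels says whether the pools of a genotype came from separate litters, so the p-values measure the spread between these pools. Libraries fell apart by Xist, the RNA of the inactive X chromosome of XX cells, which had 304 to 891 CPM in control 1 and cKO 3, 5 and 6 and 5.15 to 7.68 CPM in the other 8 libraries. In those 4 libraries the summed level of 8 markers of ovarian supporting cells was 182 to 369 CPM against 85.4 to 106 CPM, that of 4 Y-linked genes 197 to 258 CPM against 287 to 445 CPM, and that of 3 meiotic germ cell genes 123 to 274 CPM against 40.8 to 62.4 CPM. These values go against a label of testis alone, and results are given with and without them. Control 5 stood apart as well: against controls 2, 3, 4 and 6, its genes in the lowest quartile of GC content had a median log2 difference of 0.28 and those in the highest quartile of -0.30. Smaller differences were present in control 6 against controls 2, 3 and 4 (0.17 and -0.11). They had the opposite signs in control 1 against the other controls (-0.13 and 0.18).

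The 9 genes were all well above 0 in every pool. Levels of different genes were compared per kilobase of their longest transcript (CPM per kb). In control testes Amh, the hormone of duct regression, was at 297 ± 72.6 CPM per kb (SD, n = 6 pools), followed by Cst9, a cystatin-family gene of fetal Sertoli cells, at 187 ± 40.6 CPM per kb. Amh lay above Cst9 in 5 of 6 control pools, the exception being control 5, and in all 6 cKO pools. Aard, a gene expressed in fetal Sertoli cells, was at 121 ± 11.4 CPM per kb, and Ptgds, the prostaglandin D2 synthase, at 104 ± 18.3 CPM per kb. Aard lay above Ptgds in only 4 of 6 control pools, so their order was within the spread, whereas Ptgds lay above the next gene in all 6.

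The remaining genes formed a lower tier, in which transcription factors had the least mRNA. Mro, the maestro gene of the fetal male gonad, was at 25.1 ± 5.34 CPM per kb and Dmrt1, a DM-domain transcription factor that maintains male fate, at 22.6 ± 3.7 CPM per kb (SD, n = 6 pools each), with Mro the higher in 4 of 6 control pools. The 3 SoxE genes came last and in the order Sox9 (14.8 ± 3.32 CPM per kb), Sox8 (11 ± 2.42 CPM per kb) and Sox10 (4.08 ± 1.14 CPM per kb), an order kept in all 6 control pools and all 6 cKO pools. Spread between control pools differed among the genes, with a coefficient of variation of 9.4% for Aard and 28% for Sox10.

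None of the 9 genes passed the threshold of an adjusted p under 0.05 in cKO against control testes in the quasi-likelihood test of edgeR, with p-values adjusted over all genes by the Benjamini-Hochberg method. SE denotes the standard error of that estimate. Of all genes tested, 4.85% were called lower and 3.28% higher. An unadjusted p under 0.05 was reached by 2 of the 9, Sox10 and Cst9, and by 3929 of the 15572 genes tested. DESeq2 and limma-voom also called 0 of the 9, each with 2 under an unadjusted p of 0.05. So had 4331 of the 21074 genes with an unadjusted p in DESeq2 and 3693 of 15572 in limma-voom. The median log2 fold change of the 9 genes was -0.01, where it was 0.00 over all genes, and single genes ran from -0.38 to 0.20. In bulk RNA, fewer Sertoli cells and less RNA per Sertoli cell cannot be told apart. CPM is also a share of the library, so it moves with the share of other cells. The study reported fewer interstitial cells per cKO testis. The summed level of 5 fetal Leydig cell genes was 841 to 1745 CPM in cKO and 1561 to 2910.4 CPM in control pools. An unchanged CPM therefore does not show unchanged RNA per Sertoli cell, and the share of Sertoli cells was not tested.

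**Figure D1:**
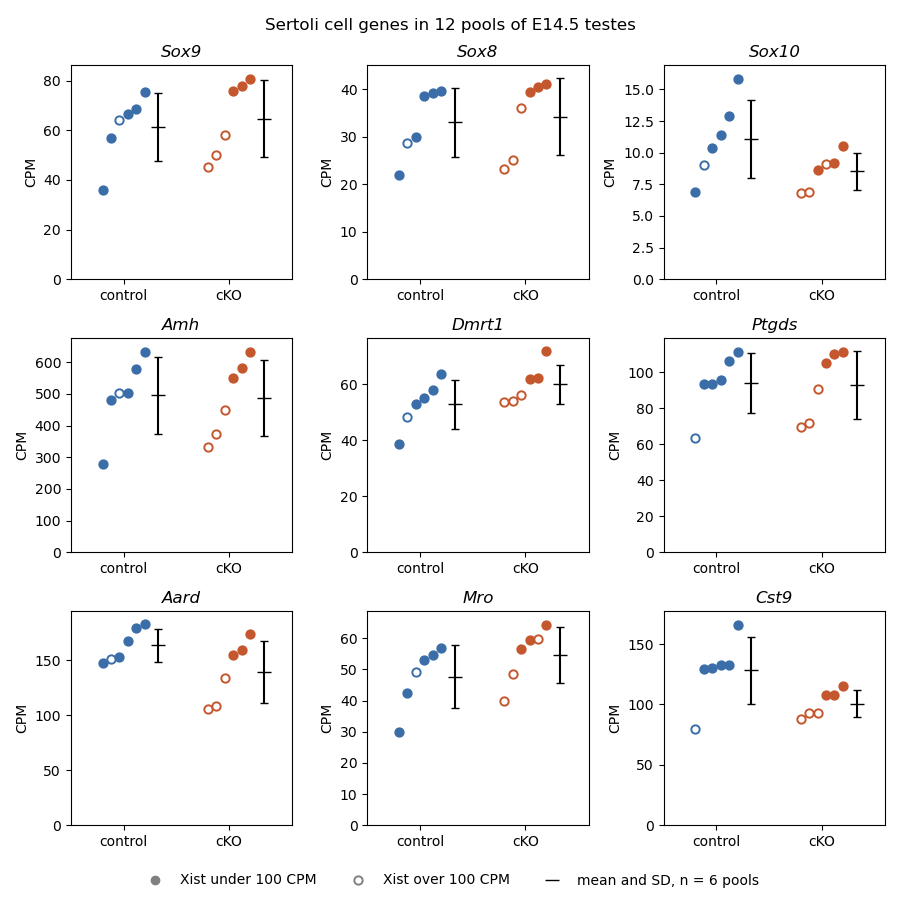
Level of each of the 9 genes (CPM, linear axes from 0) in 6 control and 6 cKO pools; each circle is a pool, ordered by value, open circles are libraries with Xist over 100 CPM, and bars give mean and SD. Control and cKO pools overlap for every gene, and the open cKO circles lie at the low end for Sox9, Amh and Ptgds.

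Sox9, the central transcription factor of Sertoli cell fate (Entrez Gene 20682, chr11:112782210-112787757 of mm10, plus strand), ranged from 36.0 CPM in control 5 through a median of 65.3 to 75.3 CPM in control 3. In cKO pools it ranged from 45.1 CPM in cKO 6 through a median of 67.1 to 80.6 CPM in cKO 1. The genotypes overlapped, with 3 cKO pools above every control pool and none under every control. Against control testes, Sox9 had a log2 fold change of 0.08 (SE 0.18, 95% interval -0.31 to 0.46, adjusted p = 0.818 by edgeR). The interval leaves room for a difference of up to 0.46 on the log2 scale, so equal expression was not shown.

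Sox8, the SoxE gene that acts beside Sox9 in Sertoli cells (Entrez Gene 20681, chr17:25565893-25570686, minus strand), had 22.0 to 39.6 CPM in control pools, with a median of 34.3. In cKO pools it had 23.1 to 41.1 CPM, with a median of 37.7. Overlap was nearly complete. Sox8 had a log2 fold change of 0.05 (SE 0.17, 95% interval -0.32 to 0.42, adjusted p = 0.886 by edgeR). GENCODE places 2810468N07Rik on the opposite strand of Sox8, and the authors counted by strand.

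Sox10, better known as a regulator of neural crest and glia, is the least abundant of the 3 SoxE genes here (Entrez Gene 20665, chr15:79154913-79164490, minus strand). It ranged from 6.89 CPM in control 5 through a median of 10.9 to 15.8 CPM in control 3. In cKO pools the lowest was 6.78 CPM, the median 8.88 and the highest 10.5 CPM. The cKO pools thus filled the lower part of the control range, and 1 of them lay under every control. The log2 fold change of -0.38 (SE 0.18, unadjusted p = 0.0493, adjusted p = 0.196 by edgeR) did not pass the threshold.

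Since Sox10 also marks Schwann cells, a list of 5 Schwann or neural crest genes was read beside it. Their summed level was 29.9 to 44.8 CPM in control pools and 32.4 to 40.1 CPM in cKO pools. In the 12 libraries 0 of the 4 tested genes was called by edgeR, with 1 (Erbb3) at an unadjusted p under 0.05, as had 3929 of 15572 genes. Erbb3, the neuregulin receptor subunit of Schwann cell precursors, was at 24 ± 5.43 CPM in control and 18.7 ± 3.11 CPM in cKO pools (SD, n = 6 each; log2 fold change -0.37, adjusted p = 0.166 by edgeR). The part of such cells in the Sox10 value was not tested.

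Dmrt1 (Entrez Gene 50796, chr19:25505706-25604328, plus strand), which is expressed in germ cells as well as Sertoli cells, ranged from 38.6 CPM in control 5 through a median of 54.0 to 63.8 CPM in control 3. In cKO pools it ranged from 53.6 through 59.0 to 71.8 CPM. All cKO pools but 1 lay within the control range, and that pool, cKO 1, was above it. For Dmrt1 the log2 fold change was 0.18 (SE 0.11, 95% interval -0.05 to 0.42, adjusted p = 0.313 by edgeR). The summed level of 5 germ cell genes was 782 to 1368 CPM in control and 1120.2 to 1423 CPM in cKO pools, and 0 of 5 was called.

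Amh (Entrez Gene 11705, chr10:80805248-80807648, plus strand) ran in control pools from 278 CPM in control 5 through a median of 504 to 632 CPM in control 3. The cKO pools ran from 333 CPM in cKO 6 through 499 to 631 CPM in cKO 1. No cKO pool lay outside the control range. For Amh the log2 fold change was -0.03 (SE 0.19, 95% interval -0.43 to 0.37, adjusted p = 0.941 by edgeR).

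Ptgds (Entrez Gene 19215, chr2:25466712-25469749, minus strand) had 63.6 CPM in control 1 and 93.5 to 111 CPM in the other controls, with a median of 94.6 over all 6. In cKO pools it had 69.4 to 111 CPM, with a median of 97.7. Control 1 was alone at the low end of its genotype, and the cKO pools were spread over the whole control range. Ptgds had a log2 fold change of -0.01 (SE 0.15, 95% interval -0.32 to 0.30, adjusted p = 0.977 by edgeR).

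Cst9 (Entrez Gene 13013, chr2:148835147-148838737, plus strand) also had its lowest control value in control 1, at 79.5 CPM, where the other 5 controls had 129 to 166 CPM. The cKO pools ranged from 88.3 CPM in cKO 6 through a median of 100.3 to 115 CPM in cKO 2. All 6 cKO pools lay under 5 of the 6 controls and above the sixth, control 1. The log2 fold change of Cst9 was -0.35 (SE 0.13, unadjusted p = 0.0211, adjusted p = 0.126 by edgeR), which did not pass. Without control 1 the log2 fold change was -0.46 (SE 0.09, adjusted p = 0.00454 by edgeR) and Cst9 was called lower. That fit kept high Xist in cKO pools only. Cst9 had 88.3 to 92.7 CPM in those pools and 108 to 115 CPM in the other cKO pools. Genotype and Xist level therefore cannot be told apart in it. In the 8 libraries with low Xist, which also lack control 1, Cst9 was not called (adjusted p = 0.0671 by edgeR). Without control 1, however, calls over all genes also grew, from 756 lower and 510 higher to 1635 lower and 1471 higher.

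Aard (Entrez Gene 239435, chr15:52040107-52045722, plus strand) ranged from 147 CPM in control 5 through 160.3 to 183 CPM in control 3. In cKO pools it ranged from 106 CPM in cKO 6 through 145 to 174 CPM in cKO 1. The 3 cKO pools with high Xist (106, 108 and 134 CPM) lay under every control, and the other 3 (155 to 174 CPM) lay within the control range. The log2 fold change of Aard was -0.23 (SE 0.12, 95% interval -0.49 to 0.03, adjusted p = 0.252 by edgeR).

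Mro (Entrez Gene 71263, chr18:73859385-73879134, plus strand) ranged from 29.8 CPM in control 5 through a median of 51.2 to 56.8 CPM in control 2. In cKO pools it had 39.8 to 64.3 CPM, with a median of 58.1. As for Sox9, 3 cKO pools lay above every control. The log2 fold change of Mro was 0.20 (SE 0.15, 95% interval -0.12 to 0.51, adjusted p = 0.427 by edgeR).

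Over the 12 libraries, control and cKO pools overlapped for each of the 9 genes, whereas over all genes tested 3.13% had every cKO pool lower and 2.39% every cKO pool higher.

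Within the cKO pools, most of the 9 genes were lower where Xist was high. For 7 of 9 genes (Sox9, Sox8, Amh, Dmrt1, Ptgds, Aard and Cst9) the 3 cKO pools with high Xist lay under every other cKO pool, and for 0 of 9 above. Over all genes, 16.3% lay under in this way and 15.2% above. Sox9 had 45.1, 50.1 and 58.2 CPM in the 3 high-Xist cKO pools against 76.0 to 80.6 CPM in the others, and Amh had 333, 375 and 448 CPM against 549 to 631 CPM. For Sox10 and Mro the cKO pools with high and low Xist overlapped. The single high-Xist control did not follow: control 1 had 64.0 CPM of Sox9 and 504 CPM of Amh, both inside the range of the other controls, and was the lowest control for Ptgds and Cst9 only. The pools were split on a measured value, so these numbers are a description, and the part of XX or ovarian cells in them was not tested.

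In the 8 libraries with Xist under 100 CPM, 5 control and 3 cKO, again 0 of 9 genes was called, with 1 of 9 (Cst9) at an unadjusted p under 0.05, as had 4417 of 15586 genes. Over all genes, 3.39% were called lower and 3.68% higher. The median log2 fold change of the 9 genes was 0.24, where it was 0.01 over all genes, and 6 of 9 values were above 0. For Sox9 the cKO pools (76.0 to 80.6 CPM) lay just above every control (36.0 to 75.3 CPM), with a log2 fold change of 0.36 (SE 0.18, adjusted p = 0.208 by edgeR). For Cst9 the cKO pools (108 to 115 CPM) lay under every control (129 to 166 CPM), with a log2 fold change of -0.32 (SE 0.10, adjusted p = 0.0671 by edgeR). In these 8 libraries such separation was common: 14.6% of all genes had every cKO pool lower and 13.6% every cKO pool higher.

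Values of the other genes also moved between the fits. Amh went from a log2 fold change of -0.03 in 12 libraries to 0.25 in 8 (adjusted p = 0.414 by edgeR), Mro from 0.20 to 0.34 (adjusted p = 0.212) and Aard from -0.23 to -0.02 (adjusted p = 0.896). With log2 Xist as a covariate in all 12 libraries, 0 of 9 genes was called by edgeR, against 4.60% of all genes called lower and 3.67% higher, and the 9 log2 fold changes lay between -0.29 and 0.24 with 1 at an unadjusted p under 0.05, as had 3471 of 15572 genes.

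**Figure D2:**
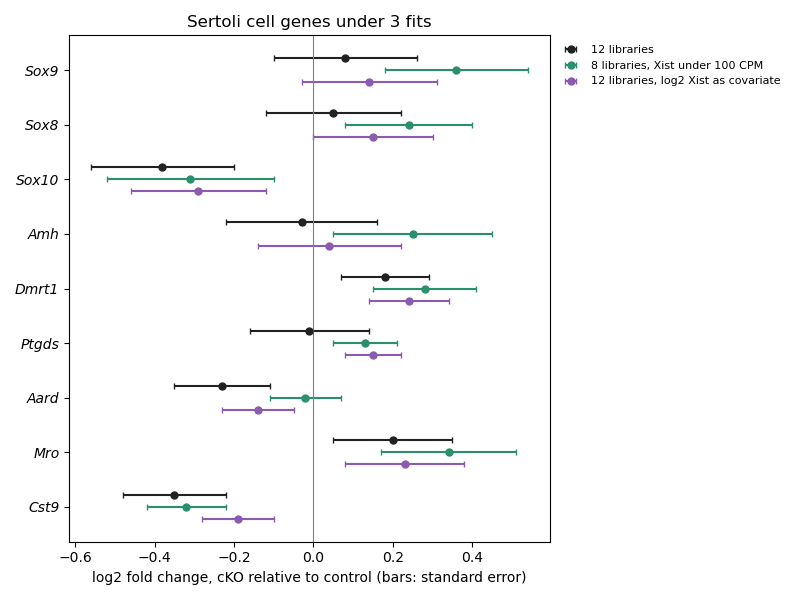
Log2 fold change of the 9 genes in cKO relative to control testes under 3 edgeR fits: all 12 libraries, the 8 with Xist under 100 CPM, and 12 with log2 Xist as a covariate; bars are standard errors. Sox10 and Cst9 lie under 0 in each fit, Dmrt1 and Mro above 0, and Amh and Ptgds on either side.

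Control 5 was the lowest control for 7 of 9 genes and the highest for Cst9. Against controls 2, 3, 4 and 6 its log2 difference was -0.97 for Amh, -0.89 for Sox9 and -0.85 for Sox10, but 0.12 for Ptgds and 0.34 for Cst9. Sox8 had -0.74, Mro -0.79, Dmrt1 -0.57 and Aard -0.21. These differences did not follow transcript GC content in order. Amh and Sox10 had the highest GC content (65.4% and 61.7%) and Cst9 the lowest (44.7%), but Mro at 47.1% and Sox9 at 49.3% were about as low in control 5 as Sox10, and Ptgds at 56.2% was not. Aard had 51.1%, Dmrt1 52.9% and Sox8 54.2%. The part of GC content in these differences was not tested. In the 7 libraries left after also removing control 5, edgeR called Cst9 lower (log2 fold change -0.25, SE 0.05, adjusted p = 0.00641) and Sox10 lower (-0.45, SE 0.14, adjusted p = 0.0376), and Sox9 had 0.21 (SE 0.08, adjusted p = 0.0764). Of the 4 tested Schwann or neural crest genes, 1 was called lower by edgeR in the same fit, Erbb3 (-0.34, SE 0.08, adjusted p = 0.00877). Calls over all genes were 1394 lower and 1356 higher in this fit, which was added after the values had been seen.

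Each gene was then read relative to Sox9 in the same library, so that a difference common to Sox9 and another gene cancels. Aard per Sox9 was 2.36 to 4.08 in control pools and 2.04 to 2.35 in cKO pools, so the highest cKO ratio was just under the lowest control ratio. It was 1 of 8 such ratios with no overlap and a lower cKO value, and 0 of 8 had a higher one, where over all genes 1.37% of ratios to Sox9 were lower without overlap and 0.655% higher. Sox10 per Sox9 was 0.141 to 0.21 in control and 0.107 to 0.157 in cKO pools, with 4 cKO pools under every control.

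Amh kept close to Sox9, at 7.19 to 8.84 CPM per CPM of Sox9 in control and 7.05 to 7.83 in cKO pools. Sox8 per Sox9 was 0.449 to 0.611 in control and 0.488 to 0.62 in cKO pools, which overlapped almost wholly. In the 8 libraries with low Xist, 3 of 8 ratios (Sox10, Aard and Cst9 per Sox9) were lower without overlap and 0 of 8 higher. There Sox9 itself was higher in each cKO pool, and 37.3% of all genes had a lower ratio to Sox9 without overlap and 1.01% a higher one, so the 3 of 8 is near the background.

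**Figure D3:**
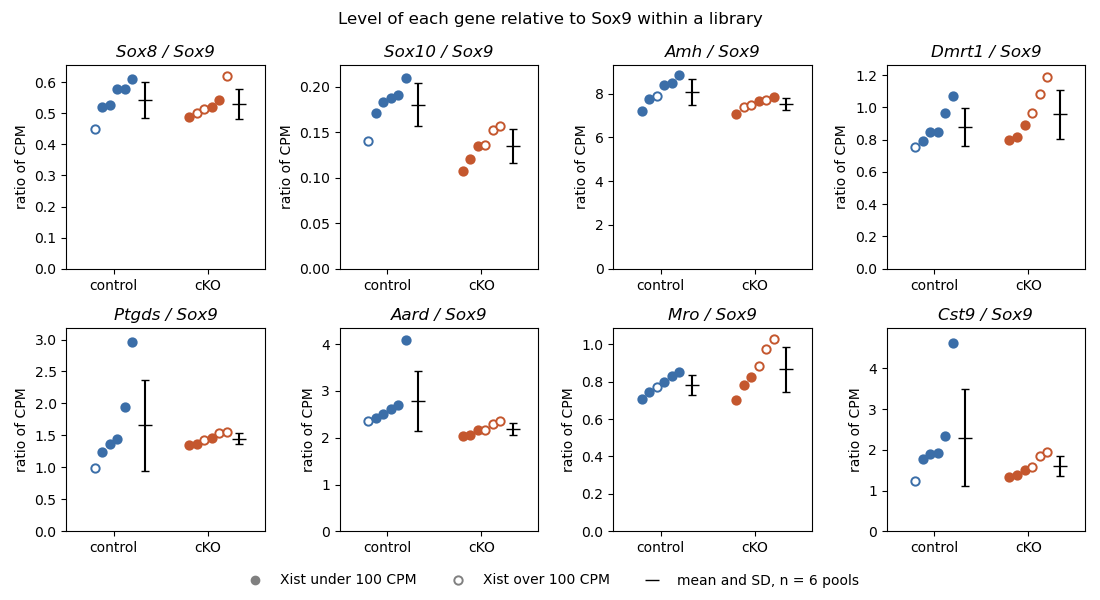
CPM of 8 Sertoli genes divided by the CPM of Sox9 in the same pool (linear axes from 0), for 6 control and 6 cKO pools; open circles are libraries with Xist over 100 CPM and bars give mean and SD. Aard per Sox9 is the only ratio whose 6 cKO pools all lie under the control pools.

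Across the 12 libraries most of the 9 genes varied together. Pearson's r of log2 CPM was 0.97 between Sox9 and Amh, 0.92 between Sox9 and Sox8, 0.88 between Sox9 and Mro and 0.84 between Sox9 and Dmrt1. Ptgds and Cst9 formed another pair, with r = 0.73 between them and r = 0.30 and -0.12 to Sox9. In the 8 libraries with low Xist, Sox9 and Cst9 ran opposite to each other (r = -0.90) and r between Ptgds and Cst9 was -0.23. These values describe 12 or 8 libraries that share genotype, Xist level and the GC differences of some controls.

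The sequences just before the start of a gene that runs with Sox9 and of one that does not are shown side by side, because SOX proteins, GATA4 and nuclear receptors are known regulators of Sertoli genes. The RefSeq promoter table (GRCm38.p6) held 3 of the 9 genes, Sox8, Ptgds and Cst9, with 250 bases before the start. Sox8 lies on the minus strand and its window is chr17:25570687-25570936, and Cst9 lies on the plus strand with its window at chr2:148834897-148835146. Both are written 5′ to 3′ along the gene, and capitals mark a match to the SOX motif ACAAAG, read here on the opposite strand.
Sox8: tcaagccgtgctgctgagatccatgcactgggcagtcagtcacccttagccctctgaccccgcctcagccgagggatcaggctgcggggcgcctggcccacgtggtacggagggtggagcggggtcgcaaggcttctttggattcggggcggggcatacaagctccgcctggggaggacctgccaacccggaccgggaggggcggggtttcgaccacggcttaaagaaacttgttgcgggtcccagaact
Cst9: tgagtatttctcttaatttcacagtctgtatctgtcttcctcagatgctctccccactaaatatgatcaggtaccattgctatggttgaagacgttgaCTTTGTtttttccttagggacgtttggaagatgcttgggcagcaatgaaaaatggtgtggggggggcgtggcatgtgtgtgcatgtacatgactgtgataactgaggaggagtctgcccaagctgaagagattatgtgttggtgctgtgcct

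The Cst9 window held this match at -152 from the start. The windows of Sox8 and Ptgds held no match, on either strand, to any of the 5 motifs searched. For SOX proteins these were ACAAT and the ACAAAG named before. For nuclear receptors the letters AGGTCA were searched, together with the NR5A1 form AAGGTCA that contains them. For GATA proteins the letters were GATAAG. Over all 32851 promoters of the table, 27.7% held ACAAT, 16.5% ACAAAG, 14.0% AGGTCA, 4.1% AAGGTCA and 6.5% GATAAG. GC content was 65.6% in the Sox8 window, 58.4% in that of Ptgds and 45.6% in that of Cst9. A match of letters is a description and not a binding site.

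Outside the 9 genes, those whose log2 CPM ran closest to Sox9 over the 12 libraries, among 11872 genes at a mean of 5 CPM or more, were Ptk2b (Pearson's r = 0.981), Svil (0.972), 4931428F04Rik (0.971), Plppr4 (0.969) and Rangap1 (0.968). For Amh they were again Ptk2b (r = 0.970), then Rest (0.969), Lats2 (0.966), Pik3cd (0.961) and Rgma (0.961). None of these genes was called in cKO against control testes by edgeR, with log2 fold changes between -0.10 and 0.12. The correlations share libraries and depth with the Sertoli genes and are given without a test.

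A wider list of 20 Sertoli genes, chosen with earlier results of these data known, had 2 genes called lower and 1 higher by edgeR, with a median log2 fold change of -0.01, against 4.85% of all genes called lower and 3.28% higher. Mmd2, a membrane gene of fetal Sertoli cells, had 29.7 to 43.3 CPM in control and 19 to 30.9 CPM in cKO pools and fell in cKO testes (log2 fold change -0.67, SE 0.12, adjusted p = 0.00453 by edgeR). It was the gene of this list also called in the 8 libraries with low Xist (log2 fold change -0.53, adjusted p = 0.00352 by edgeR). Fshr, the receptor for follicle-stimulating hormone, was low at 2.52 to 5.93 CPM in control and 0.854 to 3.11 CPM in cKO pools, with 5 cKO pools under every control (log2 fold change -1.12, SE 0.29, adjusted p = 0.0283 by edgeR). Inhbb, the beta-B subunit of inhibins and activins, had 73.6 to 139.5 CPM in control and 146 to 187 CPM in cKO pools (log2 fold change 0.44, SE 0.13, adjusted p = 0.0481 by edgeR). Every cKO pool lay above every control pool for Inhbb, as for 2.39% of all genes. In the 8 libraries Fshr had a log2 fold change of -0.83 (SE 0.26, adjusted p = 0.0747 by edgeR) and Inhbb one of 0.55 (SE 0.17, adjusted p = 0.0756 by edgeR). Neither passed there. The cKO pools of Inhbb again lay above every control pool, as for 13.6% of all genes in the 8 libraries. Both passed in those 8 libraries with a GC offset (adjusted p = 0.0485 for Fshr and 0.0249 for Inhbb by edgeR) and in the 7 libraries without control 5 (0.0436 and 0.00368), fits added after the values had been seen. No gene of the list was called higher without control 2, 4 or 6, without any single cKO pool, or without a filter on low counts. The count of calls was 1 without control 2, 4 or 6 or without cKO 3, 4, 5 or 6, and 4 without control 1, where calls over all genes rose to 1635 lower and 1471 higher of 15579. Of the genes not called, the signals Fgf9 and Dhh had log2 fold changes of 0.06 and -0.12, the retinoic acid hydroxylase Cyp26b1 had -0.04 and Defb19 had 0.02.

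**Figure D4:**
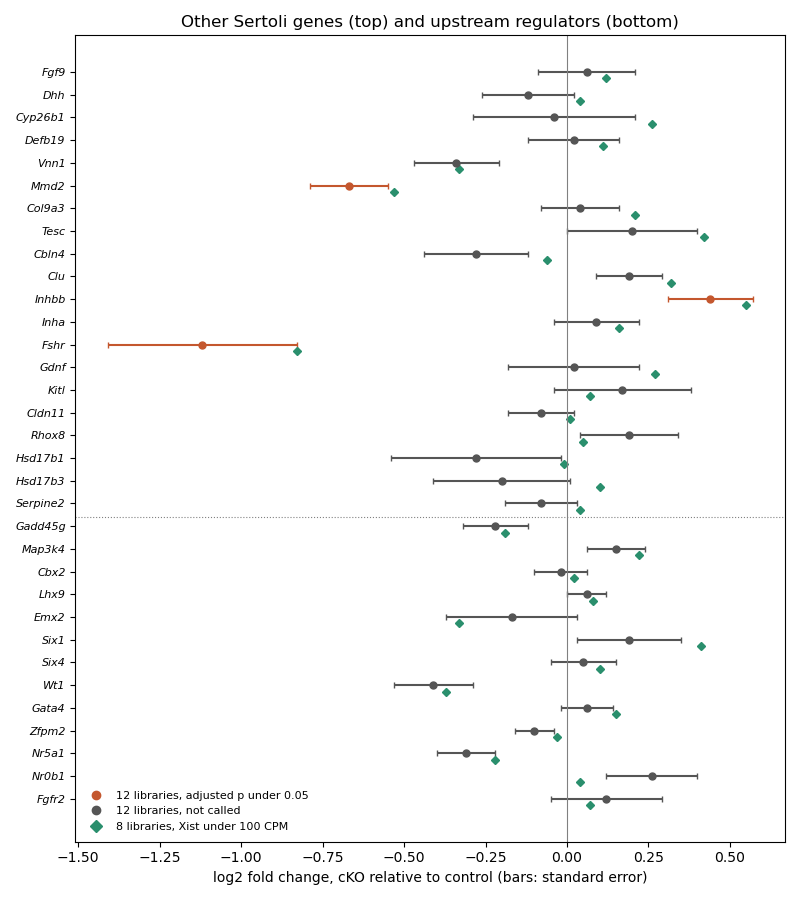
Log2 fold change in cKO relative to control testes for 20 other Sertoli genes (top) and 13 upstream regulators (bottom), as circles with standard errors for the 12 libraries and as diamonds for the 8 with Xist under 100 CPM. Mmd2, Fshr and Inhbb are the called genes (orange circles), and Wt1 and Nr5a1 have the lowest circles among the regulators.

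Among 14 genes that act upstream of Sox9 or beside it in gonad formation, 13 were tested and 0 was called by edgeR (4.85% of all genes were called lower and 3.28% higher), with 3 at an unadjusted p under 0.05 and a median log2 fold change of 0.05. DESeq2 called 2 of 13, Wt1 and Nr5a1, in a fit with 1041 lower and 878 higher calls among the 16614 genes that it gave an adjusted p. Limma-voom called 0. With edgeR the count was 2 without control 1 (1635 lower and 1471 higher calls over all genes), 3 without control 5 (673 and 524) and 1 without cKO 2 (757 and 496). Sry, the Y-linked trigger of the pathway, had too few counts to be tested. Wt1, the locus that carries the CreER allele, had 158 to 279.9 CPM in control pools with a median of 180.3, and 128 to 164 CPM in cKO pools with a median of 148 (log2 fold change -0.41, SE 0.12, adjusted p = 0.0604 by edgeR). Its highest value was that of control 1, and in the 8 libraries with low Xist its log2 fold change of -0.37 (SE 0.09, adjusted p = 0.0356 by edgeR) passed, with no overlap between genotypes. Emx2, a homeobox gene of the early gonad, was also called lower there (log2 fold change -0.33, SE 0.09, adjusted p = 0.0454 by edgeR), at 35.3 to 41.8 CPM in control and 29.1 to 33.7 CPM in cKO pools, but not in the 12 libraries (-0.17, SE 0.20, adjusted p = 0.624 by edgeR). Nr5a1, the nuclear receptor of Sertoli and Leydig cells, averaged 279.7 ± 31.8 CPM in control pools and 225 ± 25.9 CPM in cKO pools (SD, n = 6 each; log2 fold change -0.31, adjusted p = 0.0517 by edgeR). The summed level of 5 fetal Leydig cell genes, cells that share Nr5a1, was 1561 to 2910.4 CPM in control and 841 to 1745 CPM in cKO pools, and 4 of 5 were called lower. The part of Leydig cells in the Nr5a1 value was not tested.

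Of 12 receptors, signal transducers and enzymes of the AMH and prostaglandin D2 pathways, 9 were tested, with 0 called lower and 1 higher, against 4.85% and 3.28% of all genes. The one called was Hpgds, another prostaglandin D2 synthase, also known from immune cells, at 0.61 to 1.43 CPM in control and 1.23 to 2.4 CPM in cKO pools (log2 fold change 0.79, SE 0.23, adjusted p = 0.0475 by edgeR). In the 8 libraries with low Xist, Hpgds had a log2 fold change of 0.83 (SE 0.30, adjusted p = 0.11 by edgeR) and was not called. No gene of this list was called without control 2, 4, 5 or 6 or without cKO 2, 3, 4, 5 or 6. The summed level of 3 immune cell genes was 18.5 to 28.2 CPM in control and 26.5 to 31.6 CPM in cKO pools, and its part in the Hpgds value was not tested. Acvr1, a type I receptor used by AMH, had a log2 fold change of 0.20 in 12 libraries (adjusted p = 0.0863 by edgeR) and 0.31 in the 8 with low Xist (SE 0.07, adjusted p = 0.0246 by edgeR).

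The opposing program of the ovary was read from 8 genes. In all 12 libraries edgeR called 1 of 8, against 4.85% of all genes called lower and 3.28% higher. It was Wnt4, a secreted signal of the ovarian pathway that the testis interstitium and mesonephros also use. Wnt4 was lower, at 26 to 49.5 CPM in cKO against 51.8 to 110.0 CPM in control pools (log2 fold change -0.77, SE 0.19, adjusted p = 0.0249 by edgeR). Without cKO 1 or cKO 4 the count was 0 of 8, and without control 1 it was 6 of 8, in the fit with 1635 lower and 1471 higher calls of 15579 genes. In the 8 libraries with low Xist, 4 of 8 were called higher and Wnt4 lower, against 3.68% of all genes higher and 3.39% lower. Foxl2, the transcription factor of granulosa cells, was at 0.23 to 0.528 CPM in these controls and 0.859 to 1.3 CPM in these cKO pools (log2 fold change 1.45, SE 0.27, adjusted p = 0.00958 by edgeR). The summed level of 4 genes of mesonephric or supporting-like epithelium was 12.9 to 18.8 CPM in cKO pools and lower in every control pool, down to 6.27 CPM. Pax8 was among them, and the study assigned its Pax8-positive cells to the supporting-like lineage. Of these genes, 2 of 3 tested were called higher in the 12 libraries and 0 of 3 in the 8 libraries. Their log2 fold changes in the 8 libraries were 0.42 to 0.86. The summed level of 4 interstitial progenitor genes was 855 to 1066 CPM in control and 505 to 862 CPM in cKO pools. In the 12 libraries 2 of the 4 were called lower, Tcf21 and Nr2f2, the latter being the deleted gene itself. The part of these cell types in the values of Wnt4 and the other ovarian genes was not tested. The Foxl2 levels of the 8 libraries were far under the 47.2 CPM of control 1 and the 14.6 to 19.3 CPM of the high-Xist cKO pools. Fst, Bmp2 and Lgr5, which mark pregranulosa cells but also other tissues, had log2 fold changes of 0.62, 0.67 and 0.64 in the same 8 libraries (adjusted p = 0.0216, 0.0379 and 0.00448 by edgeR). Rspo1, Irx3 and Irx5 were not called there, at log2 fold changes of 0.07, 0.28 and -0.65 (adjusted p = 0.726, 0.505 and 0.253 by edgeR). Sox9 and Amh in the same 3 cKO pools were at 76.0 to 80.6 CPM and 549 to 631 CPM, in the upper range of the 12 libraries.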

How the data were processed

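RNA-seq was made from 6 control and 6 cKO pools of 3 testes at E14.5. Per the submitters' processing notes and the study's methods, the authors trimmed reads (Trim Galore 0.6.7), aligned them to mm10 (STAR 2.5) and counted them by strand with featureCounts (Subread 1.5.0-p1) on RefSeq Curated genes, and deposited raw counts without normalization. Libraries were grouped by the genotype in their labels. The analysis used edgeR 4.0.16 in R 4.3.3: TMM scaling, filterByExpr (minimum count 10, minimum total 15), glmQLFit and glmQLFTest without covariates, and Benjamini-Hochberg adjustment over all genes at 0.05. Standard errors are the fold change divided by the square root of F. The authors used DESeq2, run here (1.42.0) as an alternative beside limma-voom (3.58.1), other scalings and filters, a replicate block, Xist settings, a GC offset and leaving out each library. Log2 CPM used a prior count of 2. Loci came from the deposited table, lengths and GC content from GENCODE M21 (mm10), and promoters from RefSeq (GRCm38.p6). A ratio or non-overlap was described, not tested.

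The 9 members, the gene lists and the tests were chosen with earlier results of these data known. The genes named were the 9 members, Nr2f2, Wt1 and Xist, the genes of each list past the threshold and up to 4 others in list order, and the 5 most correlated with Sox9 and with Amh. Erbb3, Nr5a1, Acvr1 and the genes called in 8 libraries alone were named after their values were seen. The fits were tested on simulated counts before use.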

Additional observations from a re-analysis of the deposited data

Results flagged for a closer look

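Ptgds in control 1 stood apart, at 63.6 CPM where the other 5 controls had 93.5 to 111 CPM. Its gap to the nearest control was 0.633 of the range of the 6 controls, above the 95% critical value of Dixon's test for 6 samples. It was the single such value among 18 groups checked (9 genes in 2 genotypes), and chance gives about 1 in 20 groups. Control 1 is the control with 891 CPM of Xist. The cause was not tested.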

How the results depend on the processing

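Over 25 settings, the main one included, the log2 fold changes of Sox10, Aard and Cst9 were under 0 and those of Dmrt1 and Mro above 0 in each. Those of Sox9 (-0.03 to 0.36), Sox8 (-0.04 to 0.24), Amh (-0.14 to 0.25) and Ptgds (-0.10 to 0.15) took either sign. Of the 9 genes, 0 were called under other scalings, other filters, DESeq2, limma-voom, the 8 libraries with low Xist, the Xist covariate and the GC offset. Calls came to 1 (Cst9, -0.27, edgeR adjusted p = 0.0269) in the 8 libraries with a GC offset (1110 lower and 891 higher calls of 14927 genes), to 2 (Cst9 and Sox10) in the 7 libraries without control 5, both added after the data were seen, and to 0 to 1 when each library was left out, the 1 being Cst9 without control 1. The wider Sertoli list had 3 calls, 2 without a filter (both lower), 1 in the 8 libraries, 3 there with a GC offset, 4 in the 7 libraries, and 1 to 4 when each library was left out. Upstream regulators had 0 calls in the main edgeR fit. They had 1 with RLE size factors (738 lower and 520 higher calls over all genes), upper-quartile scaling (718 and 533) or the filter of 1 CPM in 6 libraries (734 and 491). The count was 2 by DESeq2, in the 8 libraries and with the Xist covariate. It was 3 with a GC offset in 12 libraries (987 lower and 617 higher calls of 14917 genes) or in 8, and 4 in 7 libraries. When each library was left out it was 0 to 3, 3 being without control 5. The AMH and prostaglandin D2 list had 1 call, 0 without a filter or with limma-voom, 2 by DESeq2, and 0 to 1 when each library was left out. The ovarian list had 1 call, 5 in the 8 libraries with or without a GC offset and in the 7 libraries, 2 with the Xist covariate, and 0 to 6 when each library was left out, 6 without control 1 and 0 without cKO 1 or cKO 4. The causes were not tested beyond the libraries and genes each setting left out.

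A replicate block gave 0 calls among the 9 genes, 2 in the wider Sertoli list (1 lower and 1 higher), 1 among upstream regulators, 0 in the AMH and prostaglandin D2 list and 0 in the ovarian list, with 539 lower and 392 higher genes in all. Nothing in the labels says that the numbers pair the pools, and same-numbered pools correlated between -0.33 and 0.24. Standard errors of 0.11 to 0.19 set the limit on what 6 pools per genotype could show for these genes.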
